A study of Homo sapiens with 21 samples.

Results

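The mut9 construct is a shortened EWS/FLI that keeps the first and the last stretch of the EWS domain around a large internal deletion, joined to an intact FLI portion. Its effect was measured as the difference between A673 cells depleted of their own fusion and rescued with mut9 (mut9 replicates 1, 2 and 3) and depleted cells that received the empty vector (iEF replicates 1, 2 and 3), which are 6 of the 21 libraries of the series. A673 is an established Ewing sarcoma cell line, used because it keeps growing after the fusion is depleted, so every value below comes from a single line. Both groups carried a retroviral shRNA, given on day 1, that targets the 3′ end of the fusion mRNA outside its coding part, and a pMSCV-hygro retrovirus from day 5 that held either 3XFLAG-tagged mut9 cDNA or no insert. Selection with puromycin at 2 µg/ml, joined later by hygromycin at 400 µg/ml, ran until day 16. The other groups used here, 3 libraries each, were depleted cells given full-length EWS/FLI (WT-EF), a form in which tyrosines of the N-terminal repeats of the EWS domain, but not of its later SYGQ2 region, are alanine (DAF) or a form without the EWS domain (Δ22), and cells with an shRNA against luciferase (iLuc), which kept the endogenous fusion.

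EWS/FLI joins the disordered, low-complexity N-terminal domain of EWSR1 to the DNA-binding domain of FLI1, an ETS factor. The fusion binds tandem GGAA repeats, where it opens chromatin and switches on genes that are silent in most tissues, and single ETS sites, and it holds down a mesenchymal program of matrix, adhesion and cytokine genes. The EWS domain associates with itself and with coactivator complexes, and tyrosines in its repeats are needed for this.

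The 6 libraries held 33.3 to 44.8 M counts, and levels are given as CPM, counts scaled to a library of 1 M after TMM normalization. The first principal component of log2 CPM over 14274 genes held 64.8% of the variance and separated mut9 from iEF, with mut9 replicate 2 farthest out at 60.5 against 37.3 and 32.6 for mut9 replicates 1 and 3. The second component, with 19.7%, spread the iEF libraries, at 9.95, -48.7 and 32.7. Summed markers of Ewing sarcoma (CD99, PRKCB, LIPI, NR0B1, NKX2-2 and STEAP1) ran from 97.5 to 122 CPM in iEF and 392 to 645 CPM in mut9, although CD99, whose pseudoautosomal copies share reads, was near 0 in both. Summed mesenchymal stromal markers ran from 2902 to 3821 CPM in iEF and 1029 to 1314 CPM in mut9. Of these 5 genes 2 were called lower and 0 higher, beside 8.33% and 6.22% of all tested genes. Their median log2 fold change was -0.09, so the lower sum did not hold for most members. Leukocyte markers summed to 1.32 to 1.81 CPM in iEF and 2.36 to 3.44 CPM in mut9, with LYZ at 0 in mut9, and hepatocyte markers to 5.6 to 9.48 CPM in iEF and 0.835 to 1.39 CPM in mut9, with ALB at 0 in mut9. Endothelial markers summed to 3.52 to 5.13 CPM in iEF and 7.54 to 28.9 CPM in mut9, of which EMCN was most, epithelial markers to 54.6 to 59.4 CPM in iEF and 46 to 66.4 CPM in mut9, and skeletal muscle markers to 3.45 to 6.91 CPM in iEF and 3.38 to 4.42 CPM in mut9, with MYOD1 and MYOG too low to test. Mitochondrial transcripts took 7.04% to 10.8% of a library's counts. Fewer cells of a type and less RNA per cell cannot be told apart in bulk samples. The 3 replicates are described as separate rounds of depletion and rescue of the same line. The p-values measure the spread left between libraries once shifts shared by a replicate set are taken out, estimated over all 7 groups.

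FLI1 (ENSG00000151702, chr11:128556430-128683162, + strand, GRCh37), to which both the construct and any remaining fusion can give reads, stood at 20.8, 20 and 21.1 CPM in iEF and at 28.3, 33.4 and 30.4 CPM in mut9. The groups did not overlap, and the log2 fold change was 0.57 ± 0.13 (SE) with an adjusted p of 0.00494 (quasi-likelihood test of edgeR, adjusted after Benjamini and Hochberg, as for every adjusted p below). EWSR1 (ENSG00000182944, chr22:29663998-29696515, + strand) stood at 258, 233 and 273 CPM in iEF and 270.0, 268 and 264 CPM in mut9, groups that overlapped, with adjusted p = 0.7. Reads of the intact allele, the fusion and the construct were not separated for this gene.

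The runs of GGAA repeats near genes that mut9 raised are shown first, because such repeats are the sites at which the fusion is known to act. Each line shows the longest uninterrupted run within 5 kb of the gene start in the hg19 (GRCh37) genome, read 5′ to 3′ on the strand where it spells GGAA. The run is in capitals, with 12 flanking bases on each side in lower case. The place given spans the run and both flanks. APELA, FCGRT, LIPI and NR0B1 follow from the rule for named genes, while GSTM4, CAV1, RBM11 and CES1 were chosen after their values were seen.
APELA, chr4:165794486-165794565, + strand: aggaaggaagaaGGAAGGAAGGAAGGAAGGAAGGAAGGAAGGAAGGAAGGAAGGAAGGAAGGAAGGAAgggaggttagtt
CAV1, chr7:116163129-116163216, + strand: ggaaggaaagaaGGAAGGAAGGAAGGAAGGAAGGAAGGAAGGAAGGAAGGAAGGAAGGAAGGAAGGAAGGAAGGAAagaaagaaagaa
FCGRT, chr19:50014752-50014823, + strand: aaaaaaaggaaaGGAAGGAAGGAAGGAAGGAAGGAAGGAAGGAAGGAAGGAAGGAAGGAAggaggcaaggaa
LIPI, chr21:15585601-15585668, - strand: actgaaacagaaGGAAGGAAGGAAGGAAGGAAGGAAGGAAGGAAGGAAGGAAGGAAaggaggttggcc
NR0B1, chrX:30328863-30328930, - strand: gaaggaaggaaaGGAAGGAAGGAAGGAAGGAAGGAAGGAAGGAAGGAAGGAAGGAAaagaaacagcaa
CES1, chr16:55864677-55864744, + strand: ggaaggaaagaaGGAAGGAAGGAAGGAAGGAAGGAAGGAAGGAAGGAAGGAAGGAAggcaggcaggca
GSTM4, chr1:110196879-110196942, + strand: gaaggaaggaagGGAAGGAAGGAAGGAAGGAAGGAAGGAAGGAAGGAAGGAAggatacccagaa
The run near LIPI also lies 2817 bases before the start of RBM11, which is transcribed the other way. Runs held 14 copies at APELA, 16 at CAV1, 12 at FCGRT, 11 at LIPI, NR0B1 and CES1, and 10 at GSTM4. A match is a description of the reference sequence, and the length of a run in A673 cells was not measured.

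The genes carrying these runs rose with mut9 by different amounts. APELA, a secreted ligand of the apelin receptor, was at 0.373, 0.939 and 0.405 CPM in iEF and 13.7, 37.2 and 11.9 CPM in mut9. LIPI, a membrane-bound lipase, was at 5.76, 8.1 and 7.7 CPM and 47, 71.8 and 37.8 CPM, and NR0B1, an orphan nuclear receptor and corepressor, at 10.9, 23.2 and 14.9 CPM and 56.6, 41.7 and 41.1 CPM. In all 3 genes every mut9 library lay above every iEF library, with log2 fold changes of 5.14 ± 0.35, 2.85 ± 0.19 and 1.57 ± 0.27 (SE) and adjusted p of 2.54e-09, 2.54e-09 and 3.21e-04. RBM11, an RNA-binding protein gene that shares the LIPI run, rose by 1.73 ± 0.16 with adjusted p = 1.89e-07. CES1, a carboxylesterase with a close pseudogene that may share its reads, rose by 3.47 with adjusted p = 1.60e-10, and GSTM4, a glutathione transferase with near-identical paralogs, by 1.96 with adjusted p = 9.91e-06. CAV1, the scaffold of caveolae, was already abundant in iEF, at 626, 570.0 and 559.8 CPM against 1127, 1073 and 856 CPM in mut9, and rose by 0.80 with adjusted p = 1.73e-04.

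Runs of this kind were counted around all 16417 protein-coding genes tested. A run of at least 8 copies lay within 5 kb of 185 genes (1.13% of these 16417), of 56 of the 1359 raised genes (4.12%) and of 20 of the 2023 lowered genes (0.989%). Of these 185 genes mut9 raised 30.3% and lowered 10.8%, beside 8.28% raised and 12.3% lowered among all protein-coding genes. The raised share was 7.66% with at most 1 copy, 8.14% with 2 or 3, 10.6% with 4 to 7, 28.9% with 8 to 11 and 31.6% with 12 or more. The number raised of the 185 was 42 to 55 when 1 of the 6 libraries was left out, with the low value without mut9 replicate 2. Against the same iEF libraries, which these comparisons share, WT-EF raised 36.2% of the 185 genes (15.3% of all protein-coding genes and 11.4% of all tested genes), DAF 19.5% (5.51% and 3.41%) and Δ22 3.24% (1.44% and 0.881%). The letters searched were GGAA in direct tandem on either strand, and no test of enrichment was made.

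**Figure D1:**
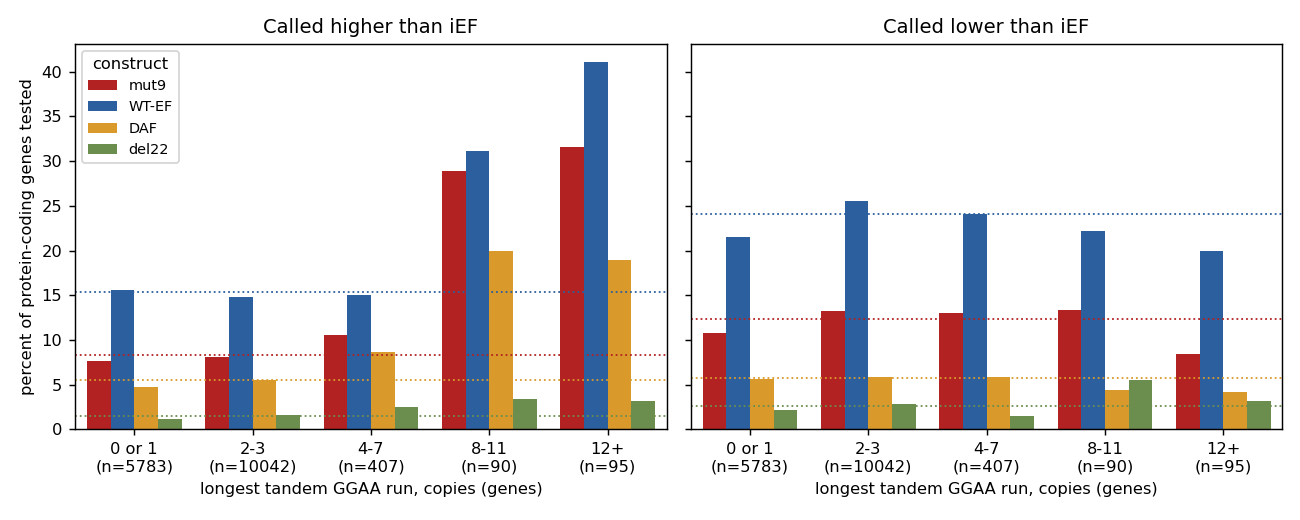
Share of protein-coding genes called higher (left) or lower (right) than iEF, in percent, by the longest tandem GGAA run within 5 kb of the gene start, for mut9, WT-EF, DAF and Δ22 (del22). Dotted lines mark the share over all protein-coding genes of each construct. The mut9 bars for raised genes step from 10.6% at 4 to 7 copies to 28.9% at 8 to 11 copies, while the bars for lowered genes stay between 8.42% and 13.3%.

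The test covered 30549 genes, of which 14.6% were called at an adjusted p below 0.05, 6.22% higher and 8.33% lower with mut9. The median log2 fold change of all tested genes was 0.02. Of the called genes 96.9% differed in the same direction in all 3 replicate sets and 89.1% had groups that did not overlap, beside 41.7% and 26.3% of all tested genes, although the test itself selects for both. In replicate sets 1, 2 and 3 the raised genes differed by medians of 1.06, 1.38 and 1.11 on the log2 scale and the lowered genes by -0.93, -1.21 and -1.12, so the set with mut9 replicate 2 showed the widest differences. Without that library 2688 genes were called, against 4445 with it.

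The 12 largest rises began with APELA. Next came IGF1, the ligand of the IGF1 receptor, a growth pathway on which Ewing sarcoma cells are known to lean, at 2.89, 6.63 and 3.94 CPM in iEF and 108, 144 and 91.2 CPM in mut9. The groups stood far apart, with a log2 fold change of 4.70 ± 0.26 (adjusted p = 2.13e-10), although 6693 of its 8115 exon bases are shared with antisense transcripts and the use of strand in counting is not stated. NELL2, a secreted glycoprotein that binds ROBO receptors, rose from 35, 40.1 and 33.5 CPM to 598, 893 and 418 CPM (log2 fold change 4.09 ± 0.21, adjusted p = 8.83e-11). DLG2, a scaffold of the postsynaptic density, rose from 25, 34.5 and 24.3 CPM to 409.8, 581 and 343 CPM (log2 fold change 3.98 with adjusted p = 1.31e-10). In both genes the lowest mut9 library was replicate 3 and the highest replicate 2.

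ROBO2, a receptor for SLIT guidance cues, moved from 12.3, 6.98 and 10.8 CPM to 148, 174 and 144 CPM, and TRDN, a triad protein of muscle that anchors calsequestrin, from 10.3, 7.04 and 9.89 CPM to 129.7, 171 and 140.3 CPM. The mut9 libraries of these 2 genes lay close together. OLFM3, an olfactomedin secreted in brain and retina, moved from 7.33, 6.95 and 6.08 CPM to 111, 163 and 104 CPM. SERTM1, a small membrane protein, moved from 13.7, 19.2 and 8.7 CPM to 219, 334 and 109 CPM, the widest spread among mut9 libraries of the 4. Their log2 fold changes were 3.95 ± 0.21, 4.0 ± 0.25, 4.20 ± 0.24 and 3.94 ± 0.23 (SE), with adjusted p of 1.75e-10, 1.07e-09, 2.37e-10 and 2.99e-10. SLC15A2, a peptide transporter, rose by 4.56 with adjusted p = 1.43e-08, PDGFD, a ligand of the PDGF-beta receptor, by 4.08 with adjusted p = 4.77e-09, GPR174, a lysophosphatidylserine receptor, by 4.12 with adjusted p = 7.44e-07, and ALDH1A1, a retinaldehyde dehydrogenase, by 4.16 with adjusted p = 1.40e-05. These 4 were low in iEF, at no more than 5.1 CPM in any library, and in all 12 genes the groups did not overlap. Set directly against the other constructs, 11 of the 12 did not differ between mut9 and WT-EF at the threshold and OLFM3 was lower with mut9 (-0.71 with adjusted p = 0.0409, not called without any 1 of mut9 replicates 1 and 3 and the WT-EF libraries, where adjusted p was 0.0625 to 0.19), beside 1.2% lower and 4.95% higher among all tested genes. All 12 were higher with mut9 than with Δ22 (4.52% of all tested genes), and 11 were higher than with DAF (3.13%), the exception being ALDH1A1 (1.36 with adjusted p = 0.0856), whose difference from Δ22 was also not called without mut9 replicate 1 or 2 or Δ22 replicate 1 or 2 (adjusted p 0.138 to 0.212). SLC15A2 was not called against DAF without mut9 replicate 1 or 2 or DAF replicate 2 or 3 (adjusted p 0.0566 to 0.353).

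The 12 largest falls included FST, IL6 and SPP1. FST, follistatin, which binds and blocks activins, was at 12.6, 42.1 and 42.9 CPM in iEF and 1.97, 1.52 and 2.36 CPM in mut9. IL6, an inflammatory cytokine, was at 13.6, 23.4 and 26.6 CPM and 2.1, 0.859 and 2.04 CPM, and SPP1, the matrix phosphoprotein osteopontin, at 199, 67.8 and 97.4 CPM and 8.67, 7.54 and 8.11 CPM. In these 3 genes the mut9 libraries were uniformly low, and the iEF libraries were more uneven. The log2 fold changes were -4.07 ± 0.36, -3.52 ± 0.45 and -3.72 ± 0.50 (SE) with adjusted p of 9.43e-08, 1.10e-05 and 1.86e-05. C3, the central complement protein, was even across iEF, at 52.2, 46 and 42.6 CPM, and fell to 5.2, 0.712 and 6.86 CPM in mut9 (-3.41 with adjusted p = 5.62e-04), where replicate 2 was the lowest. GALNT5, a Golgi enzyme that starts mucin-type glycosylation, moved from 24.2, 50.3 and 23.3 CPM to 2.87, 2.41 and 2.76 CPM (-3.57 with adjusted p = 4.52e-09). EHF, an epithelial ETS factor, moved from 15.4, 9.67 and 18.2 CPM to 0.809, 0.442 and 2.01 CPM (-3.80 with adjusted p = 8.11e-06). Neither gene had overlapping groups.

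The remaining 6 rested on uneven iEF libraries. CXCL6, a neutrophil chemokine, was at 73.6, 261 and 52 CPM in iEF and 9.09, 1.15 and 7.13 CPM in mut9, and SRGN, the granule proteoglycan serglycin, at 9.57, 54 and 8.38 CPM and 1.46, 0.417 and 0.931 CPM. In both iEF replicate 2 stood far above the others. CD22, an inhibitory lectin of B cells, was at 14.7, 3.75 and 67.1 CPM and 2.08, 0.687 and 1.69 CPM, SPX, the peptide hormone spexin, at 45.9, 8.79 and 81.1 CPM and 6.47, 1.84 and 1.31 CPM, and PAPPA2, a protease that cleaves IGF-binding proteins, at 12, 0.501 and 21.9 CPM and 1.36, 0.196 and 0.32 CPM. For these 3, iEF replicate 3 was the highest and replicate 2 the lowest, and the groups of PAPPA2 overlapped. SOD3, extracellular superoxide dismutase, completed the set at 2.61, 24.7 and 6.65 CPM and 0.393, 0.81 and 0.843 CPM. Log2 fold changes of the 6 were -4.08, -4.22, -3.88, -3.89, -4.08 and -3.77, and adjusted p ran from 1.53e-05 to 0.00153. None of the 24 largest changes lost its call when a library was left out. They were chosen as called, moving one way in all 3 sets and largest in change. Kept calls and separate groups are therefore no independent support. An alternative test, DESeq2, gave no adjusted p for GPR174 among the rises or for any of the 12 largest falls but SPX.

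**Figure D2:**
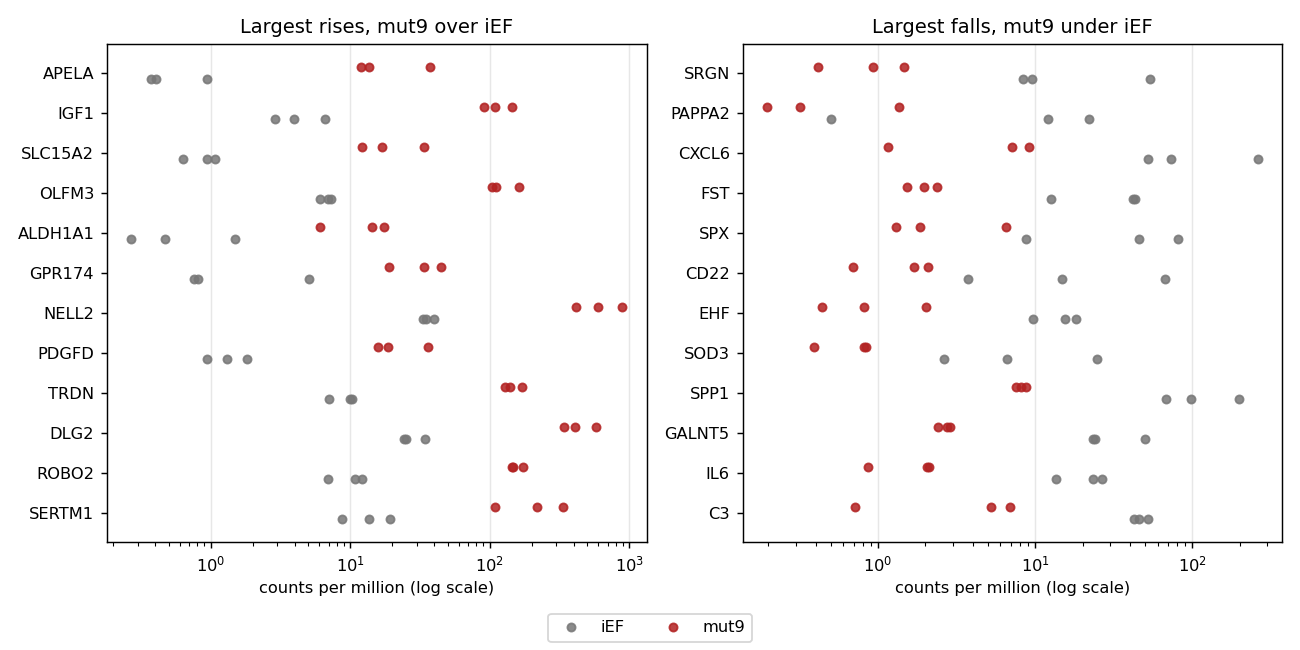
Level of the 12 genes with the largest rise (left) and the largest fall (right) in each iEF (grey) and mut9 (red) library, in CPM on a log axis. Points are single libraries, 3 per group. The groups do not overlap in any gene but PAPPA2, and iEF points of the falling genes are spread more widely than those of the rising genes.

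Most of the largest falls did not set mut9 apart from Δ22 at the threshold. The mut9 level of the 12 falling genes was lower than that of Δ22 for 4 (GALNT5, SPP1, SOD3 and FST) and did not differ at the threshold for 8, beside 4.64% lower among all tested genes, and it was lower than that of DAF for 2 (3.48%). Of the 4, SOD3 was not called without any 1 of the mut9 libraries or Δ22 replicate 1 or 3 (adjusted p 0.0585 to 0.154), and of the 2, SRGN and GALNT5, neither was called without mut9 replicate 2 or DAF replicate 3, nor SRGN without mut9 replicate 3 or DAF replicate 2 and GALNT5 without mut9 replicate 1 or DAF replicate 1 (adjusted p 0.0831 to 0.192 and 0.052 to 0.134). IL6 averaged 21.2 ± 6.79 CPM in iEF, 2.75 ± 1.87 CPM in Δ22, 3.07 ± 2.63 CPM in DAF, 1.67 ± 0.7 CPM in mut9 and 0.42 ± 0.16 CPM in WT-EF (SD, n = 3). No library of these 4 rescue groups reached the lowest iEF library, and the mut9 value differed from that of WT-EF (2.14 with adjusted p = 0.0154) but not at the threshold from that of Δ22 (-0.51 with adjusted p = 0.6). Of the 12 falling genes 4 stood higher with mut9 than with WT-EF, among them C3 (3.24 with adjusted p = 0.00992) and CXCL6 (2.93 with adjusted p = 0.0265). None of the 4 kept this call when mut9 replicate 1 or 3 or WT-EF replicate 3 was left out, with adjusted p of 0.0528 to 0.154 for IL6, 0.0662 to 0.0815 for C3, 0.0679 to 0.21 for CXCL6 and 0.0518 to 0.115 for GALNT5 over the libraries that ended it, which for these genes other than C3 included WT-EF replicates 1 and 2. These direct comparisons share the mut9 libraries that ranked the genes.

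**Figure D3:**
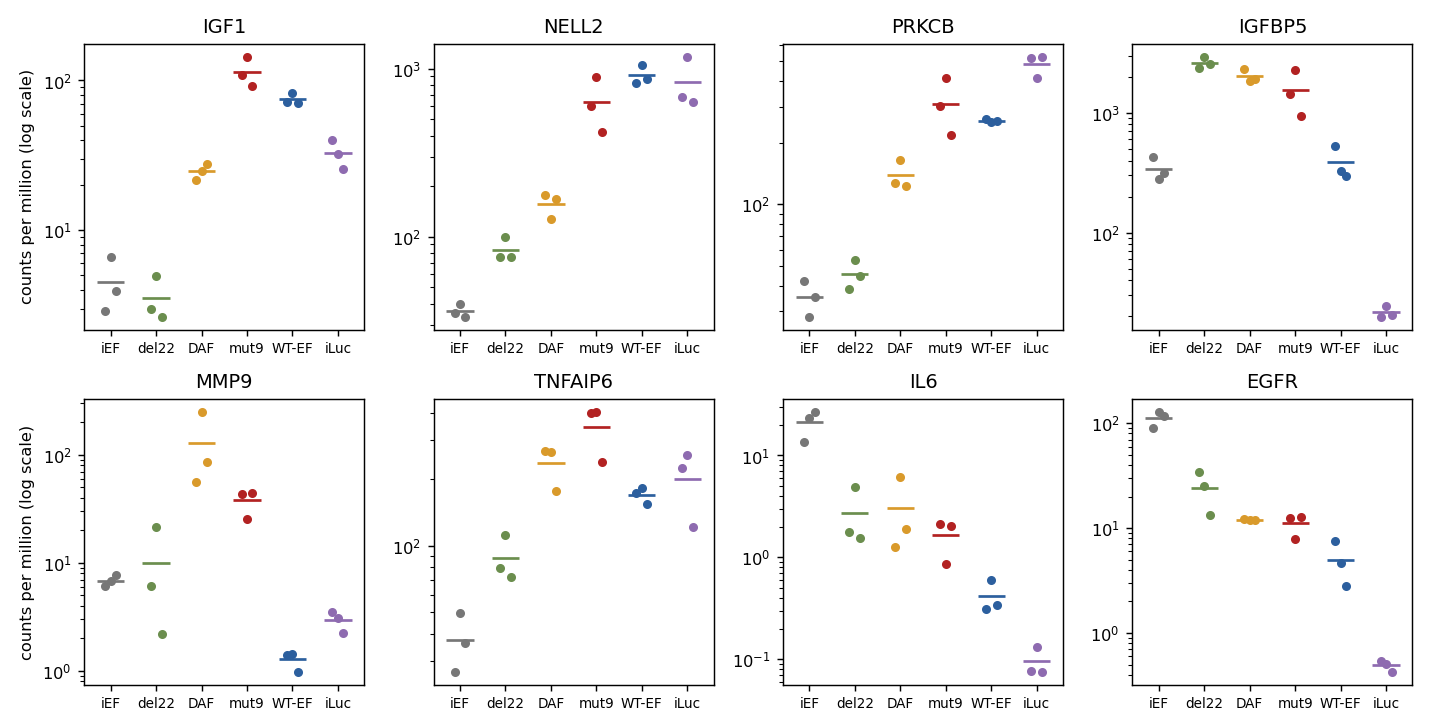
Level of 8 genes in each library of 6 groups, in CPM on log axes, with a bar at the mean of each group (n = 3). IGF1, NELL2 and PRKCB stand near the WT-EF level in mut9, IGFBP5 and MMP9 stand above it, and IL6 and EGFR are below iEF in every group.

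The gene lists below were compared with these background shares of 6.22% higher and 8.33% lower. Counts in brackets give the value where leaving out 1 library of the groups compared moved it by more than 1.5 times. For counts that reach 5 in either analysis they also give values moved as much by an alternative, namely limma on the authors' ComBat-adjusted values, DESeq2, no replicate block, no filter on low counts, or a model of the 2 groups compared (with 2 groups). The ComBat-adjusted values hold 26173 of the 30549 tested genes, so each count with limma is set against the count by edgeR over the members of the list that they hold. Throughout, a change in brackets or after a verb is a log2 fold change of mut9 over iEF unless another group is named.

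Of 36 tested genes known as activated targets of EWS/FLI in Ewing sarcoma, 29 rose with mut9 and 2 (1 without mut9 replicate 2, mut9 replicate 3 or iEF replicate 3) fell, with a median log2 fold change of 1.52. PRKCB, a protein kinase C isoform, moved from 42.5, 28.3 and 35.2 CPM to 301, 412 and 219 CPM, NPY, a neuropeptide, from 1.42, 0.845 and 1 CPM to 9.73, 12 and 5.12 CPM, and FCGRT, the neonatal Fc receptor, from 6.6, 9.98 and 7.19 CPM to 55.1, 89.1 and 45.6 CPM. No library of one group reached the other. Log2 fold changes were 3.11 ± 0.20, 3.03 ± 0.34 and 2.99 ± 0.19 (SE) with adjusted p of 1.07e-09, 2.55e-06 and 9.32e-10. LOXHD1, a PLAT-domain protein of hair cells, rose by 3.38 with adjusted p = 3.41e-07, STEAP1, a surface metalloreductase, by 1.14 with adjusted p = 4.06e-05, and NKX2-2, a homeobox repressor, by 1.46 with adjusted p = 5.96e-04. The 2 that fell were PDGFC, a PDGF ligand, and UPP1, uridine phosphorylase. ID2, an inhibitor of helix-loop-helix factors, did not pass (log2 fold change 0.53, adjusted p = 0.188), but did without iEF replicate 3 (0.87 with adjusted p = 0.0331). Against WT-EF directly, 7 (4 without mut9 replicate 1, 3 without mut9 replicate 3 or WT-EF replicate 3, 4 with no block, 12 with no filter, 13 with 2 groups, 3 with limma against 6 over its 35 members) of the 36 were lower with mut9 and 2 (0 without mut9 replicate 1, 1 without mut9 replicate 2, WT-EF replicate 2 or WT-EF replicate 3, 6 with 2 groups) higher, beside 1.2% lower and 4.95% higher among all tested genes. LIPI was lower with mut9 (-1.07 with adjusted p = 7.73e-04). Against DAF 21 (13 without mut9 replicate 2 or DAF replicate 2) were higher with mut9 and 0 lower, beside 3.13% and 3.48%, and against Δ22 25 were higher and 2 (0 without mut9 replicate 1, 1 without mut9 replicate 2, mut9 replicate 3, del22 replicate 1, del22 replicate 2 or del22 replicate 3) lower, beside 4.52% and 4.64%.

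Of 21 genes known as repressed targets, 1 (3 without iEF replicate 2, 5 with no filter) rose and 12 (7 with limma against 11 over its 19 members) fell, with a median of -0.69. IGFBP5, an IGF-binding protein of the matrix, was the one that rose, from 424, 278 and 315 CPM to 1434, 2278 and 935 CPM, so that the lowest mut9 library was above the highest iEF library (2.14 ± 0.24, adjusted p = 2.40e-06). LOX, which crosslinks collagen, moved the other way, from 319, 299 and 422 CPM to 97.6, 49.8 and 140.3 CPM, with groups that did not overlap. The log2 fold change was -1.89 ± 0.26 (adjusted p = 3.05e-05). VIM, vimentin, did not pass (-0.28 with adjusted p = 0.124). Against WT-EF 15 (9 without mut9 replicate 1 or WT-EF replicate 2, 8 without WT-EF replicate 3, 7 with limma against 13 over its 19 members) of the 21 were higher with mut9 and none lower, beside 4.95% and 1.2%. IGFBP5 was higher by 1.98 with adjusted p = 4.62e-05, and it was higher still in Δ22, at 2614 ± 292 CPM against 1549 ± 679 CPM in mut9 (SD, n = 3), a difference of -0.81 with adjusted p = 0.0315 that was not called without mut9 replicate 1 or 3 or Δ22 replicate 2 or 3 (adjusted p 0.0981 to 0.19).

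Of 32 developmental transcription factors 15 rose and 4 (2 without mut9 replicate 1) fell (median 0.37), among them POU3F1, a POU factor of neural and Schwann cell progenitors, from 4.85, 3.97 and 5.4 CPM to 20.3, 28.8 and 16.5 CPM (2.19 with adjusted p = 9.43e-08). BCL11B, a zinc finger factor of T cells and cortical neurons, rose by 1.72 with adjusted p = 6.00e-06, PAX7, a paired-box factor of neural crest and muscle progenitors, by 1.85 with adjusted p = 4.58e-05, and SOX8, a neural crest factor, by 1.69 with adjusted p = 3.27e-04. Of 10 genes of the HOXD cluster and its neighbour EVX2, 8 (5 without iEF replicate 1) rose and 1 (0 without mut9 replicate 1, mut9 replicate 2, mut9 replicate 3, iEF replicate 1 or iEF replicate 3) fell (median 0.91). HOXD9, a patterning factor of posterior axis and limb, rose from 4.83, 6.66 and 4.05 CPM to 14.7, 18.7 and 11.4 CPM (1.53 with adjusted p = 7.97e-06) with no overlap, and HOXD3 by 1.33 with adjusted p = 2.75e-04 and HOXD8 by 0.98 with adjusted p = 5.92e-04.

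Of 34 synapse and neurite genes 13 rose and 4 (7 without iEF replicate 2, 7 with no filter) fell (median 0.60). CNTNAP2, a neurexin-family adhesion protein, rose from 6.67, 6.04 and 8.75 CPM to 64.6, 96.3 and 71.8 CPM and GAP43, a growth cone protein, from 36.5, 28.1 and 20.2 CPM to 165, 219.6 and 163 CPM. Both were separated from iEF in every library, with log2 fold changes of 3.41 ± 0.28 (adjusted p = 3.42e-08) and 2.73 ± 0.26 (adjusted p = 2.46e-07). DLGAP1, which binds the DLG scaffolds, rose by 2.30 with adjusted p = 3.88e-08 and NCAM2, an adhesion molecule, by 2.35 with adjusted p = 4.10e-08. GAP43 also stood at 122 ± 12.8 CPM in Δ22 (SD, n = 3), and mut9 did not differ from Δ22 at the threshold (0.59 with adjusted p = 0.156).

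Neuropeptide, channel and guidance genes went both ways. Of 21 neuropeptide and granule genes 6 rose and 7 (3 without iEF replicate 3, 4 with limma against 4 over its 17 members) fell (median -0.53). PCSK2, a convertase that matures peptide hormones, rose from 5.06, 6.91 and 8.16 CPM to 47.4, 69.5 and 50.3 CPM (3.06 with adjusted p = 2.48e-10), and GRP, a bombesin-like peptide, from 2.78, 2.16 and 1.59 CPM to 11.6, 16.1 and 9.6 CPM (2.52 with adjusted p = 1.25e-07). GRP remained below the WT-EF level of 45, 44.8 and 42.3 CPM (-1.83 with adjusted p = 2.08e-05 for mut9 over WT-EF). Of 28 potassium channel genes 7 rose and 9 (5 without iEF replicate 3, 4 with limma against 4 over its 20 members) fell (median 0.16). KCNMA1, the pore of the BK channel, fell from 119, 108 and 159 CPM to 17.3, 12.6 and 30.3 CPM (-2.71 with adjusted p = 1.10e-07), and KCNA2, a Kv1 channel of axons, rose by 2.08 with adjusted p = 3.41e-07. Of 34 axon guidance genes 6 rose and 14 (7 without mut9 replicate 2) fell (median -0.59). Beside ROBO2, the netrin receptor DCC rose from 19.3, 20 and 14.4 CPM to 90.9, 128 and 79 CPM (2.45 with adjusted p = 1.60e-10), whereas the semaphorin coreceptor NRP2 fell by 3.29 with adjusted p = 2.40e-06 and its partner PLXNA4 fell by 2.13 with adjusted p = 4.38e-05.

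Of 13 Hedgehog genes 2 rose and 2 fell. PTCH1, the receptor and a target of the pathway, rose from 7.05, 7.2 and 5.43 CPM to 10.8, 12.8 and 10.2 CPM (0.78 with adjusted p = 0.00138), and GLI2, a transcriptional effector, fell from 22.5, 15.7 and 19.5 CPM to 6.24, 6.95 and 9.98 CPM (-1.31 with adjusted p = 3.94e-05). Groups overlapped in neither. Of 28 Wnt modulators and targets 7 rose and 11 (7 without mut9 replicate 2) fell (median -0.33). DKK2, a secreted antagonist of the Wnt coreceptors, rose from 4.53, 5.29 and 9.67 CPM to 87, 160.2 and 61.1 CPM and DKK3, a divergent relative, fell from 156, 326 and 167 CPM to 35.9, 34.1 and 39.9 CPM. Both shifts left the groups apart (3.92 ± 0.33, adjusted p = 4.64e-08, and -2.49 ± 0.20, adjusted p = 3.68e-08), although 5681 of 11958 exon bases of DKK3 have antisense transcripts. The Wnt-binding protein FRZB rose by 2.84 with adjusted p = 7.27e-06 and SFRP1, a secreted Wnt-binding relative, fell by 2.39 with adjusted p = 1.95e-06.

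The IGF axis comprised 17 tested genes, of which 4 rose and 7 (3 with limma against 5 over its 14 members) fell (median -0.21). Beside IGF1 and IGFBP5, IRS2, a docking protein of the receptor, rose from 36.1, 30.4 and 68.9 CPM to 138, 146 and 122 CPM (1.62 with adjusted p = 1.59e-05). Among binding proteins that hold IGF ligands away from the receptor, IGFBP3 stood at 3771, 5873 and 3974 CPM in iEF and 1718, 1288 and 2214 CPM in mut9, and fell (-1.38 with adjusted p = 2.98e-04). IGFBP6, which prefers IGF2, fell by 1.62 with adjusted p = 2.12e-06 and IGFBP4 fell by 1.53 with adjusted p = 9.54e-04. Against WT-EF 8 (4 with limma against 5 over its 14 members) of the 17 were higher with mut9 and none lower, beside 4.95% and 1.2% of all tested genes, with IGFBP3 higher by 2.35 with adjusted p = 9.58e-06.

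**Figure D4:**
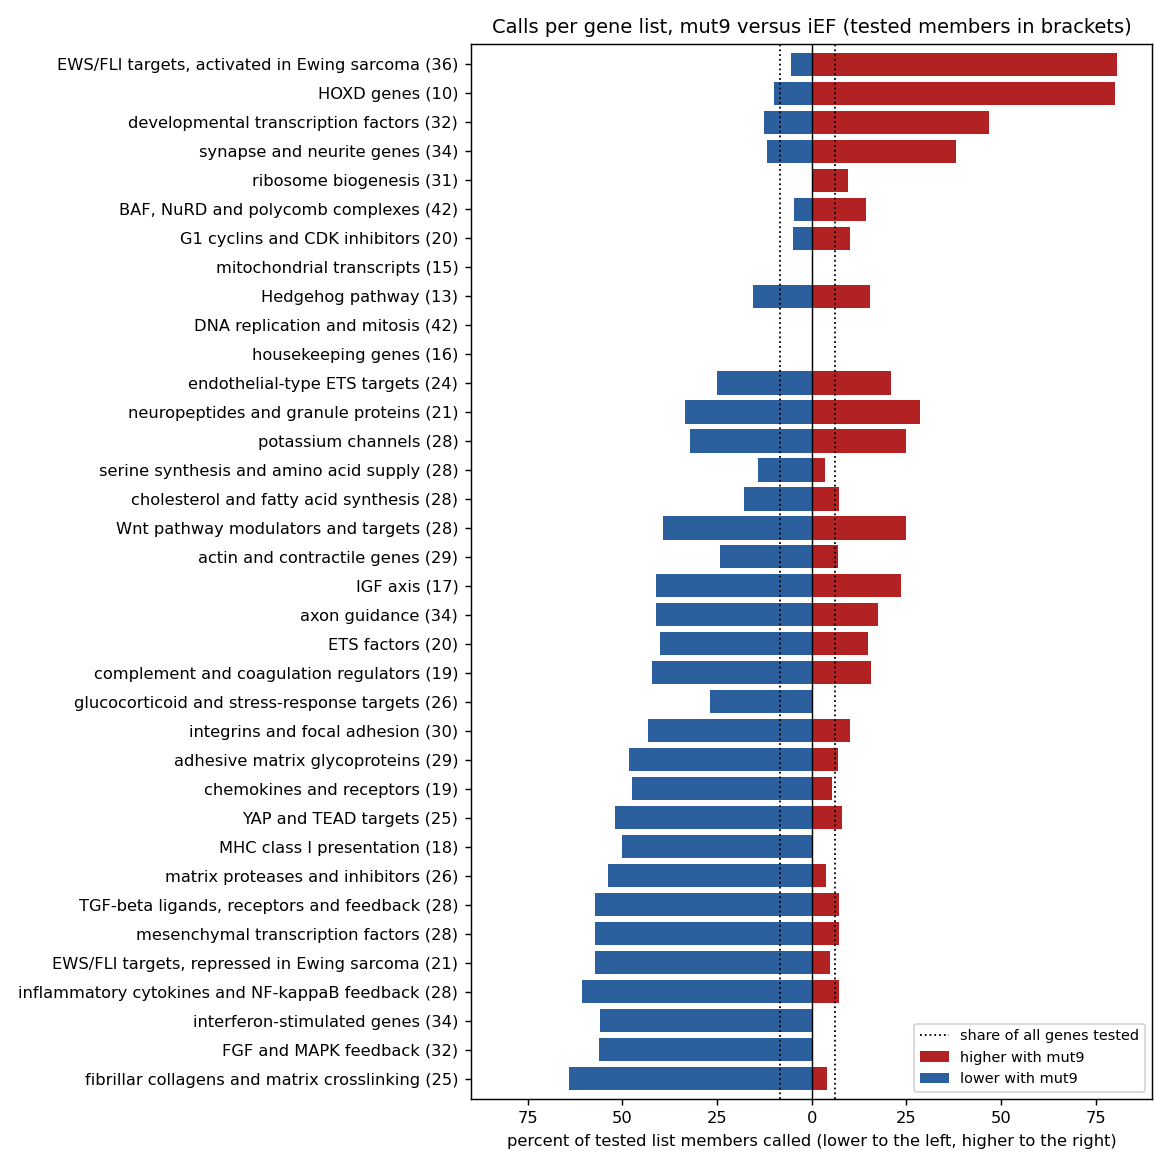
Percent of the tested members of each gene list called lower (blue, to the left) or higher (red, to the right) with mut9 than iEF, with the number tested in brackets. Dotted lines mark the 8.33% lower and 6.22% higher among all tested genes. Activated EWS/FLI targets and HOXD genes reach farthest to the right and fibrillar collagens farthest to the left.

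In each of the 3 matrix lists, of collagens, adhesive glycoproteins and proteases, more genes fell than rose. Of 25 fibrillar collagen and crosslinking genes 1 (0 without mut9 replicate 1, mut9 replicate 3, iEF replicate 1 or iEF replicate 3, 2 without iEF replicate 2) rose and 16 (10 with limma against 13 over its 21 members) fell, with a median of -0.98. The 3 chains of collagen VI moved together. COL6A1 went from 582, 863 and 608 CPM to 224, 121 and 182 CPM, COL6A2 from 784, 1242 and 977 CPM to 317, 174 and 266 CPM and COL6A3 from 482, 1126 and 265 CPM to 166, 109 and 131 CPM. No library overlapped, and the log2 fold changes were -1.93 ± 0.27, -1.97 ± 0.26 and -2.06 ± 0.36 (SE) with adjusted p of 3.37e-05, 1.64e-05 and 3.99e-04. Even so, COL6A1 kept a higher level with mut9 than with WT-EF, at 68.9, 56.5 and 45.3 CPM, by 1.66 with adjusted p = 6.64e-04. P3H2, which hydroxylates collagen prolines, fell by 2.50 with adjusted p = 6.30e-07, while COL3A1, a major interstitial collagen, did not pass (0.71 with adjusted p = 0.154) unless iEF replicate 2 was left out (1.55 with adjusted p = 7.61e-06). Against WT-EF 15 (8 without WT-EF replicate 2, 9 without WT-EF replicate 3, 8 with limma against 12 over its 21 members) of the 25 were higher with mut9 and none lower, beside 4.95% and 1.2%.

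Of 29 adhesive glycoproteins of the matrix 2 (5 without iEF replicate 2, 6 with no filter) rose and 14 (7 with limma against 9 over its 23 members) fell (median -0.48). LAMA4, a laminin chain of vessel basement membrane, went from 128, 323 and 137 CPM to 36.4, 31.2 and 33.9 CPM (-2.45 with adjusted p = 1.59e-06), with iEF replicate 2 the highest and no overlap. TNC, tenascin-C, stood at means of 2064 and 2609 CPM and did not pass (adjusted p = 0.146) unless iEF replicate 2 was left out (0.59 with adjusted p = 0.0227). Of 26 matrix proteases and inhibitors 1 (2 without iEF replicate 1 or iEF replicate 2) rose and 14 (9 without iEF replicate 3) fell (median -0.80). PLAT, tissue plasminogen activator, fell from 624, 1155 and 475 CPM to 136, 88.6 and 187 CPM (-2.46 with adjusted p = 1.78e-05), and ADAM12, a membrane metalloprotease, from 33.9, 45.5 and 45.9 CPM to 9.87, 11.1 and 11.8 CPM (-1.94 with adjusted p = 8.95e-06). MMP9, a gelatinase that degrades basement membrane, was the member that rose, from 6.09, 6.76 and 7.73 CPM to 43.4, 25.3 and 44.7 CPM (2.54 ± 0.50, adjusted p = 0.0013). MMP1, the interstitial collagenase, did not pass (-0.90 with adjusted p = 0.0866) unless iEF replicate 2 was left out (-1.28 with adjusted p = 0.00657).

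Of 30 integrin and focal adhesion genes 3 rose and 13 (8 with limma against 10 over its 27 members) fell (median -0.47). ITGA7, a laminin receptor of muscle and glia, rose from 3.34, 3.88 and 2.57 CPM to 10, 15.6 and 9.74 CPM (1.85 with adjusted p = 9.67e-06), and the collagen receptor ITGA2 fell from 159, 46.1 and 163 CPM to 29, 15.8 and 57.8 CPM (-1.84 with adjusted p = 0.001), where iEF replicate 2 lay within the range of mut9. ITGAV, a partner in RGD-binding integrins, did not pass (-0.44 with adjusted p = 0.102) unless iEF replicate 1 was left out (-0.61 with adjusted p = 0.0268). Of 29 actin and contractile genes 2 (1 without mut9 replicate 2 or iEF replicate 3) rose and 7 fell (median -0.23), among the latter TPM1, a tropomyosin (-1.07 with adjusted p = 0.00272), and MYLK, myosin light chain kinase (-1.13 with adjusted p = 0.00127). TGM2, a crosslinking transglutaminase placed on this list, fell by 2.96 with adjusted p = 1.71e-05. MYH9, nonmuscle myosin, did not pass (-0.26 with adjusted p = 0.292). Of 25 YAP and TEAD targets 2 rose and 13 (7 without mut9 replicate 2, 8 without iEF replicate 2) fell (median -0.54). AXL, a receptor tyrosine kinase, fell from 95.8, 178 and 236 CPM to 40.5, 25.8 and 62.9 CPM (-1.99 with adjusted p = 1.58e-05), with no overlap.

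Of 28 mesenchymal transcription factors 2 rose and 16 fell (median -1.18). RUNX1, a core-binding factor, went from 40.1, 38.3 and 68.5 CPM to 11.7, 6.92 and 16.5 CPM (-2.08 with adjusted p = 5.32e-06), TBX2, a T-box repressor, from 11, 5.13 and 9.75 CPM to 0.74, 0.196 and 1.89 CPM (-3.24 with adjusted p = 1.10e-04), and FOXL1, a forkhead factor of gut mesenchyme, from 13.1, 28.6 and 12.5 CPM to 4.39, 2.63 and 6.4 CPM (-2.0 with adjusted p = 2.92e-04). All 3 had separate groups. PRRX1, a homeobox factor of limb mesenchyme counted with the stromal markers, fell by 1.25 with adjusted p = 4.41e-05.

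In the TGF-beta list and in the FGF and MAPK list more genes fell than rose. Of 28 TGF-beta genes 2 (1 without mut9 replicate 2, mut9 replicate 3, iEF replicate 1, iEF replicate 2 or iEF replicate 3) rose and 16 fell (median -0.72). Among ligands INHBA, the activin A subunit, went from 172, 334 and 318 CPM to 23.9, 20.4 and 37.5 CPM (-3.31 ± 0.28, adjusted p = 5.55e-08). Among binding proteins LTBP1, which stores latent TGF-beta in matrix, went from 64.4, 73.7 and 75 CPM to 9.66, 7.66 and 12.5 CPM (-2.84 ± 0.19, adjusted p = 2.54e-09), and GREM1, a BMP antagonist, from 44.4, 25.1 and 36.6 CPM to 4.46, 2.41 and 11.7 CPM (-2.63 with adjusted p = 1.93e-04). Each of these 3 was far lower in every mut9 library, with no overlap. INHBA stood above WT-EF, at 8.1, 6.99 and 6.68 CPM, by 1.88 with adjusted p = 2.56e-04. Of 32 FGF and MAPK genes 0 rose and 18 fell (median -0.89), led by EGFR, the EGF receptor, from 90.3, 128 and 118 CPM to 12.5, 7.9 and 12.9 CPM (-3.36 ± 0.28, adjusted p = 4.04e-08). NRG1, a ligand of ERBB3 and ERBB4, fell by 2.03 with adjusted p = 1.14e-05, PDGFRA, the PDGF-alpha receptor, fell by 1.95 with adjusted p = 8.04e-05, and FGF2, a basic FGF, fell by 1.82 with adjusted p = 6.33e-06. EGFR averaged 12 ± 0.065 CPM with DAF, 24.2 ± 10.3 CPM with Δ22 and 11.1 ± 2.76 CPM with mut9 (SD, n = 3), and mut9 did not differ from DAF at the threshold (-0.12 with adjusted p = 0.869) but was lower than Δ22 (-1.08 with adjusted p = 0.00942, not called without mut9 replicate 1 or 2 or Δ22 replicate 1 or 2, where adjusted p was 0.0506 to 0.0906).

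In the cytokine, chemokine and interferon lists more genes fell than rose, and the size of the difference varied between the mut9 libraries. Of 28 cytokine and NF-kappaB feedback genes 2 rose and 17 (11 without mut9 replicate 2, 5 with limma against 5 over its 14 members) fell, with a median of -1.32. This fall was not particular to mut9, as the medians over the same iEF libraries were -1.29 for Δ22 and -1.05 for DAF. Directly, the median was -0.16 for mut9 over Δ22 and -0.37 for mut9 over DAF. IL11, a gp130 cytokine, went from 108, 113 and 205 CPM to 15.2, 9.35 and 20.6 CPM (-3.25 ± 0.30, adjusted p = 2.03e-07). TNFAIP6, a hyaluronan-binding protein induced by TNF and IL1, rose from 26.9, 49.6 and 36.3 CPM to 398, 403 and 239 CPM (3.19 ± 0.20, adjusted p = 7.25e-10), and the other member that rose was LIFR, a gp130 partner. Of 19 chemokines and receptors 1 (2 without mut9 replicate 2) rose and 9 (5 without mut9 replicate 2, 3 with limma against 3 over its 9 members) fell (median -1.39). Medians of this list over the same iEF libraries were -0.87 for Δ22 and -0.53 for DAF. Directly, the median was -0.28 for mut9 over Δ22 and -0.91 for mut9 over DAF. CXCL1, a neutrophil chemokine with near-identical neighbours, went from 118, 259 and 130.5 CPM to 41.6, 5.72 and 55.6 CPM (-2.30 with adjusted p = 0.00589), replicate 2 of mut9 being several times lower than the others.

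Of 34 interferon-stimulated genes 0 rose and 19 (7 without mut9 replicate 2, 10 without mut9 replicate 3 or iEF replicate 2, 29 with no filter) fell, with a median of -0.88. MX2, a dynamin-like restriction factor, went from 57.4, 126 and 51 CPM to 16.1, 2.65 and 13.8 CPM, OAS2, a sensor of double-stranded RNA, from 55.5, 147 and 40 CPM to 20.4, 4.44 and 13.3 CPM, and IFI27, a mitochondrial interferon-induced protein, from 76.9, 213 and 76.2 CPM to 26.5, 4.71 and 15.7 CPM. In each, mut9 replicate 2 was the lowest library and iEF replicate 2 the highest, and the groups did not overlap. Log2 fold changes were -2.75 ± 0.49, -2.44 ± 0.52 and -2.76 ± 0.57 (SE) with adjusted p of 4.97e-04, 0.00234 and 0.00181. OAS3, a longer relative of OAS2, did not pass (-0.91 with adjusted p = 0.0938) unless mut9 replicate 1 was left out (-1.33 with adjusted p = 0.0268). Of 18 genes of class I presentation 0 rose and 9 (3 without mut9 replicate 2) fell (median -0.72), among them HLA-C (-0.91 with adjusted p = 0.00374), an antigen-presenting chain whose alleles and paralogs share reads. In the main edgeR fit 0 of the 18 were higher or lower with mut9 than with Δ22, beside 4.52% and 4.64% of all tested genes. The median was -0.28 for mut9 over Δ22 and -0.49 for mut9 over DAF. The median log2 difference of the interferon list from the iEF mean was -0.53, -1.45 and -0.80 in mut9 replicates 1, 2 and 3 and -0.24, 0.49 and -0.25 in the iEF replicates. For the cytokine list it was -0.99, -2.31 and -1.23 and -0.45, 0.07 and 0.22. For collagen genes it was -0.72, -0.89 and -1.19 and -0.29, 0.44 and -0.25.

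Many members of these lists stood higher with mut9 than with full-length fusion. Against WT-EF 28 (12 without mut9 replicate 1, 18 without WT-EF replicate 1, 14 without WT-EF replicate 3) of 34 interferon-stimulated genes, 21 (9 without mut9 replicate 1, 12 without mut9 replicate 3 or WT-EF replicate 2, 10 without WT-EF replicate 3, 8 with limma against 10 over its 14 members) of 28 cytokine genes and 13 (7 without mut9 replicate 1, 8 without WT-EF replicate 3) of 18 class I genes were higher with mut9, beside 4.95% of all genes, and none was lower. MX2 was at 0.985, 2.03 and 1.23 CPM in WT-EF and OAS2 at 1.06, 3.22 and 1.3 CPM, below every mut9 library, by 3.01 ± 0.55 (adjusted p = 0.00162) and 2.96 ± 0.57 (adjusted p = 0.0028). Against DAF 8 (17 without mut9 replicate 1, 3 without mut9 replicate 2, mut9 replicate 3 or DAF replicate 3, 4 without DAF replicate 2, 30 with no filter, 5 with 2 groups, 3 with limma against 5 over its 27 members) interferon-stimulated genes were lower with mut9 and 0 higher, beside 3.48% and 3.13% of all tested genes.

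**Figure D5:**
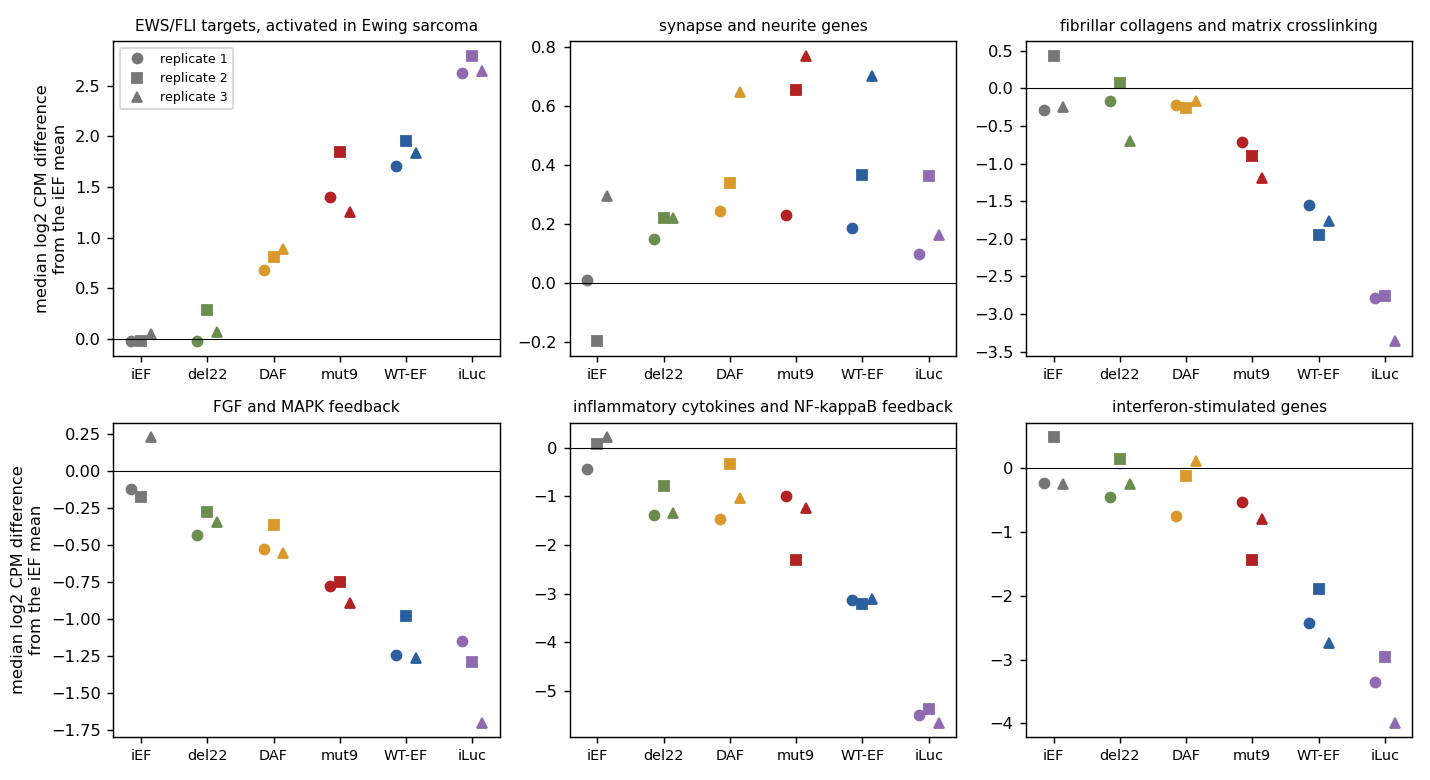
Median log2 CPM difference of the tested members of 6 gene lists from their iEF mean, one point per library (circle, square and triangle for replicates 1, 2 and 3) in 6 groups. Activated targets in mut9 lie at 1.40, 1.85 and 1.25. For cytokine and interferon-stimulated genes mut9 lies between iEF and WT-EF, with replicate 2 lowest. For cytokine genes Δ22, at -1.38, -0.79 and -1.33, and DAF, at -1.46, -0.35 and -1.03, overlap mut9. For interferon-stimulated genes Δ22, at -0.45, 0.15 and -0.25, lies above mut9, and DAF is at -0.75, -0.12 and 0.10.

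Of 19 complement and coagulation regulators 3 rose and 8 (5 without iEF replicate 3, 4 with limma against 7 over its 15 members) fell (median -0.55). CFI, the protease that inactivates C3b, rose from 10, 38.7 and 12.1 CPM to 61.2, 80.1 and 52.8 CPM (1.79 ± 0.28, adjusted p = 1.16e-04), and A2M, a broad protease inhibitor, from 2.82, 10.5 and 7.24 CPM to 28, 75.9 and 46.3 CPM (2.91 ± 0.30, adjusted p = 6.37e-07), while C3 fell. F2RL1, a protease-activated receptor, fell by 1.78 with adjusted p = 3.13e-05 and CD55, which speeds decay of complement convertases, fell by 1.65 with adjusted p = 0.00146. Of 26 glucocorticoid and stress targets 0 rose and 7 (3 without mut9 replicate 2, 4 without mut9 replicate 3, 15 with no filter) fell (median -0.53). NR3C1, the glucocorticoid receptor, was among them, from 131, 147 and 201 CPM to 93.1, 82.9 and 90.9 CPM (-0.85 with adjusted p = 6.64e-04), with no overlap.

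Among 20 ETS factors 3 rose and 8 fell. ETS1, the founding member, went from 233, 276 and 559.7 CPM to 133, 68.2 and 124 CPM (-1.68 with adjusted p = 3.84e-04), and ETV4 (-1.40 with adjusted p = 1.24e-04) and ETV5 (-0.88 with adjusted p = 0.00402), factors induced by FGF signaling, fell with it. FEV, a neuronal ETS gene, rose from at most 1 count in an iEF library to 0.231, 0.859 and 0.931 CPM in mut9 (adjusted p = 4.89e-06). Of 24 endothelial-type ETS targets 5 (3 without mut9 replicate 1, mut9 replicate 2, mut9 replicate 3, iEF replicate 2 or iEF replicate 3, 3 with no block, 3 with limma against 4 over its 19 members) rose and 6 (3 with limma against 5 over its 19 members) fell. APLNR, the receptor of APELA and apelin, rose from 0.537, 0.219 and 0.27 CPM to 1.41, 2.58 and 2.38 CPM (2.55 with adjusted p = 2.48e-05), and SOX17, a factor of arterial endothelium, fell from 3.97, 5.38 and 2.27 CPM to 0.902, 0.515 and 1.16 CPM (-2.08 with adjusted p = 0.0029). Both were low in every library.

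Few proliferation and upkeep genes were called. Of 42 DNA replication and mitosis genes none was called by edgeR, DESeq2 or limma. At an unadjusted p below 0.05, 5 were higher and 0 lower, but the share of all tested genes at that threshold was not counted. MKI67, a marker of cycling cells, differed by 0.47 with adjusted p = 0.151, and was the 1 member called without mut9 replicate 1 or iEF replicate 1 (0.68 and 0.82 with adjusted p = 0.0446 and 0.00615). Of 20 G1 cyclins and CDK inhibitors 2 (1 without mut9 replicate 2 or iEF replicate 3) rose and 1 (2 without iEF replicate 2) fell. CCND1, cyclin D1, rose from 1889, 1312 and 1603 CPM to 2602, 2159 and 2189.7 CPM (0.53 with adjusted p = 0.0022), and CDK6, its kinase partner, fell from 255, 264 and 306 CPM to 167, 98.5 and 163 CPM (-0.95 with adjusted p = 0.00403). None of 16 housekeeping genes or 15 mitochondrial transcripts was called by any of the 3 tools. Unadjusted p was below 0.05 for 1 higher and 1 lower of the former and for 2 higher and 0 lower of the latter. These counts too have no share of all tested genes to be set beside.

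Of 42 genes of the BAF, NuRD and polycomb complexes 6 rose and 2 (1 without mut9 replicate 1, mut9 replicate 2, mut9 replicate 3 or iEF replicate 1) fell (median 0.12). SMARCC1, a core BAF subunit, rose from 159.7, 152 and 142 CPM to 289, 342 and 275 CPM (0.99 with adjusted p = 5.66e-06), CHD3, a NuRD remodeler, from 124, 122 and 93.3 CPM to 277, 272 and 234 CPM (1.21 with adjusted p = 7.79e-07), and EZH2, the polycomb methyltransferase, by 0.64 with adjusted p = 0.00108. DPF3, a BAF subunit of heart and muscle, fell (-1.0 with adjusted p = 0.00261). Of 28 cholesterol and fatty acid genes 2 (0 without mut9 replicate 2, 1 without mut9 replicate 3 or iEF replicate 3) rose and 5 (2 without mut9 replicate 2, 1 without mut9 replicate 3, iEF replicate 2 or iEF replicate 3, 3 with no block, 2 with 2 groups) fell, the latter including INSIG1, a sterol-sensing brake (-1.16 with adjusted p = 0.00281). Of 28 serine and amino acid genes 1 (0 without mut9 replicate 2) rose and 4 (7 without iEF replicate 2, 16 with no filter, 8 with 2 groups) fell, the latter including SLC1A4, a neutral amino acid transporter (-0.66 with adjusted p = 0.00296). Of 31 ribosome biogenesis genes 3 (1 without mut9 replicate 1 or iEF replicate 2, 0 without mut9 replicate 2 or iEF replicate 3) rose and 0 fell.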

How the data were processed

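RNA-seq libraries of A673 cells, 21 in 7 groups of 3, were grouped by their sample labels. The authors sequenced ScriptSeq libraries paired-end, aligned reads with STAR (2.5.1b per the labels) to hg19 and deposited raw counts per Ensembl gene from htseq-count (mode intersection-strict). The sources used here give neither the annotation release nor how strand was treated. The authors also deposited values adjusted for replicate set with ComBat, a signal not scaled for library size, which were used in an alternative, and DESeq2 fold changes and p-values, which were not used.

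Raw counts were tested in R 4.3.3 with edgeR 4.0.16 (TMM normalization, quasi-likelihood fit on group plus replicate set over all 21 libraries, including DAF-mut9). Of 57820 genes, 30549 averaging 1 or more counts per library entered the tests, and genes were called at a Benjamini-Hochberg adjusted p below 0.05. The block follows the authors' adjustment for replicate set. Alternatives were DESeq2 1.42.0, limma 3.58.1, no block, other normalization and filters, 2 groups only, and each library left out. Scripts were tested on simulated data. Library totals and CPM limit precision for genes of few counts.

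Named genes were FLI1, EWSR1, the 12 largest rises and falls among genes of at least 5 CPM that moved one way in all 3 sets, up to 6 called members of each list by size of change and up to 3 uncalled ones by level. Some that met the rule are not reported here. PDGFC, UPP1 and LIFR were named after their values were seen, as members of small counts. Comparisons, lists and members were chosen with earlier results of these data known. Of 942 listed symbols 916 were tested. Gene places are from GENCODE lifted to GRCh37.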

Additional observations from a re-analysis of the deposited data

Results flagged for a closer look

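The genes MMP9, CD93 and CFI moved in opposite directions with mut9 and with full-length fusion relative to the shared iEF libraries, and differed when the constructs were compared directly. MMP9 was higher with mut9 than with iEF by 2.54 on the log2 scale and lower with WT-EF by -2.46, and mut9 exceeded WT-EF by 5.0 with adjusted p = 3.53e-05. It was at 43.4, 25.3 and 44.7 CPM in mut9 and 1.42, 1.45 and 0.982 CPM in WT-EF, and at 129.6 ± 103 CPM in DAF (SD, n = 3). CD93, a lectin-like receptor of endothelium, was at 2.43, 0.907 and 2.24 CPM in iEF, 5.06, 2.82 and 6.83 CPM in mut9 and 0.697, 0.46 and 0.909 CPM in WT-EF, with changes of 1.36 and -1.46 and a direct difference of 2.82 with adjusted p = 3.96e-04. Its rise over iEF was not called without mut9 replicate 1 or 3, or without iEF replicate 2 or 3. CFI was at 11.3, 10.5 and 9.58 CPM in WT-EF, with changes of 1.79 for mut9 and -0.81 for WT-EF and a direct difference of 2.59 with adjusted p = 2.08e-05. All adjusted p are from edgeR. In all, 13 tested genes were called in opposite directions in this way.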

How the results depend on the processing

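For mut9 against iEF, 1901 genes were higher, 2544 lower and 4445 called. Requiring a change of at least 2-fold left 1190 higher, 1589 lower and 2779 in all, and fitting the 2 groups alone gave 1166 higher. With 1 library left out, which also leaves fewer samples, the counts were 1184 to 1657, 1504 to 2388 and 2688 to 4045, lowest without mut9 replicate 2. For mut9 against WT-EF, 1511 were higher, 367 lower and 1878 called. At least 2-fold gave 811 higher, 154 lower and 965 in all, and 2 groups alone gave 3066, 2050 and 5116. The lower count was 739 with DESeq2, 714 with no filter, 564 with filterByExpr and 225 with no replicate block. With 1 library left out they were 569 to 1499, 127 to 318 and 696 to 1817, lowest without WT-EF replicate 2. For mut9 against DAF, 955 were higher, 1063 lower and 2018 called. At least 2-fold gave 546 higher, 461 lower and 1007 in all, DESeq2 gave 1630 lower, and no filter gave 1781 lower and 3082 called. With 1 library left out they were 454 to 801, 422 to 884 and 876 to 1685. For mut9 against Δ22, 1382 were higher, 1418 lower and 2800 called, at least 2-fold gave 903 higher, 766 lower and 1669 in all, and leaving out 1 library gave 888 to 1218, 776 to 1182 and 1664 to 2400, all lowest without mut9 replicate 2. The cause of these shifts was not tested beyond the fewer samples. Deviations of same-numbered iEF and mut9 libraries correlated at -0.0792, 0.176 and 0.194 in sets 1, 2 and 3. Those of differently numbered libraries correlated at -0.213 to 0.0709. Sets 2 and 3 lay above that range and set 1 did not, so the numbers were not shown to pair the samples in every set. Without the replicate block 3854 genes were called between mut9 and iEF. DESeq2 gave no adjusted p for C3, CD22, CXCL6, EHF, FST, GALNT5, GPR174, IL6, PAPPA2, SOD3, SPP1 or SRGN. With no low-count filter ID2, TNC, COL3A1, VIM, MMP1, ITGAV, OAS3 and MKI67 passed the threshold for mut9 against iEF, and 5 of 42 replication and mitosis genes were higher. Genes of few counts and uneven iEF libraries, such as PAPPA2, are the least precise.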
